A study of Mus musculus with 6 samples.

Results

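Crotonate-treated neural progenitors carried 1099 H3K4me3 peaks that lay at the ends of protein-coding genes, had no counterpart in water-treated cells and did not touch H3K27me3 in either condition. A peak was taken into this set when it shared no base with an H3K4me3 peak of the water list or with an H3K27me3 peak of either list, and reached within 2 kb of an annotated start or end of a protein-coding RefSeq gene of GRCm38. These 1099 peaks were 6.87% of the 16007 H3K4me3 peaks called after crotonate and 32.6% of the 3371 called after crotonate only (21.1% of the list), and they reached 1293 of 21887 protein-coding genes (5.91%). The cells were neural stem and progenitor cells from E13.5 mouse forebrain, grown in EGF and FGF and given 10 mM crotonate or water for 24 h. CUT&Tag, which cuts and tags DNA beside an antibody-bound histone mark, gave 1 library per mark and treatment, so differences have no replicate check and no test was made. The peaks were chosen by their presence in the crotonate list and their absence from the water list, and their crotonate values describe them and test nothing.

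H3K4me3 is laid down around the transcription starts of active and poised genes, mostly by SET1 and MLL complexes, and is densest on the nucleosomes just downstream of the start. CpG-rich promoters tend to carry it by default, through proteins that bind unmethylated CG dinucleotides, whereas CpG-poor promoters gain it when the gene is switched on. H3K27me3, placed by Polycomb repressive complex 2, covers many silent developmental genes, and the peaks described here lay outside it. Crotonate is a short-chain fatty acid that cells turn into crotonyl-CoA, the donor for histone crotonylation.

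The labelled cell type was checked on 13 marker genes of neural stem cells and forebrain, among them Sox2 and Nes. H3K4me3 lay at an annotated end of 11 of the 13 in both conditions, and H3K27me3 at 0 of the 13 in either. At vessel markers 1 of 14 genes had H3K4me3 at an end in water and 3 of 14 after crotonate, and at microglia and macrophage markers the numbers were 3 and 4 of 20. Fibroblast markers had it at 4 and 5 of 12, oligodendrocyte markers at 4 and 6 of 12 and astrocyte markers at 5 of 9 in both. Neuron markers had it at 11 of 14 in water and 12 of 14 after crotonate. The check therefore does not separate the labelled cells from neurons.

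Promoter sequences come first because the strongest new peaks lay on promoters that differed widely in CG content. The 300 bases shown run from 250 before to 50 after a listed start, 5′ to 3′ in the direction of the gene, from RefSeq (GRCm38.p6), with every CG dinucleotide in capitals. The first 6 belong to the strongest peaks, by −log10 q, that overlapped such a window, and the last 2 are the windows with the most and the fewest CG among the peaks whose −log10 q reached the median.
E130311K13Rik, chr3:63929423-63929722, minus strand: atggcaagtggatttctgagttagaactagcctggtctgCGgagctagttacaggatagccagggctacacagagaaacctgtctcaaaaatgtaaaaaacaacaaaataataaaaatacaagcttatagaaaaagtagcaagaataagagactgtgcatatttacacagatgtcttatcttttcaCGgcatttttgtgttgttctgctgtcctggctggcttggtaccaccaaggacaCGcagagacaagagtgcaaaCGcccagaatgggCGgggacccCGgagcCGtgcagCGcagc
Radil, chr5:142551049-142551348, minus strand: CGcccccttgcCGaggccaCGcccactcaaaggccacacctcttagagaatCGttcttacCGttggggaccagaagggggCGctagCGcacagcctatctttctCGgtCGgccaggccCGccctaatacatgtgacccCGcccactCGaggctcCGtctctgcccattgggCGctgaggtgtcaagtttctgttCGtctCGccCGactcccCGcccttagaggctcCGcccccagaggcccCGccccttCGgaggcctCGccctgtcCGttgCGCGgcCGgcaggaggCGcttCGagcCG
Emc9, chr14:55585205-55585504, minus strand: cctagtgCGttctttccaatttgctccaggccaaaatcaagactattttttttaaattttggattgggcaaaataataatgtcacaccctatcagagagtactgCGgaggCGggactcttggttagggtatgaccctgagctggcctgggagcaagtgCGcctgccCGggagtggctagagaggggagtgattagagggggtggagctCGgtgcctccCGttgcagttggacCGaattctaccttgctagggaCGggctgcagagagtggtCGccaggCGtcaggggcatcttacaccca
Sv2a, chr3:96180977-96181276, plus strand: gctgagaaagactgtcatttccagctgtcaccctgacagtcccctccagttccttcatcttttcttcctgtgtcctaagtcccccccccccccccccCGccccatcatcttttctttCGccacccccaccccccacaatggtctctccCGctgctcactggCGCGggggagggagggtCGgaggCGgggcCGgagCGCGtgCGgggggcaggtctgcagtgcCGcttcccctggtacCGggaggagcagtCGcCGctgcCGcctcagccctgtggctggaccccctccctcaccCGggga
Gm21814, chr6:149565832-149566131, plus strand: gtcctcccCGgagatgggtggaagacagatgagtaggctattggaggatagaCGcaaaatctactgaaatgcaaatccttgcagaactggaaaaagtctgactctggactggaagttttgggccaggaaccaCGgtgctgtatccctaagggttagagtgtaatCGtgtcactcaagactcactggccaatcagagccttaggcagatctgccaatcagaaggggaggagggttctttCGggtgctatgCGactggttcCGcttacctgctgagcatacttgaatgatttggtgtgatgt
Vmn2r29, chr7:7278240-7278539, minus strand: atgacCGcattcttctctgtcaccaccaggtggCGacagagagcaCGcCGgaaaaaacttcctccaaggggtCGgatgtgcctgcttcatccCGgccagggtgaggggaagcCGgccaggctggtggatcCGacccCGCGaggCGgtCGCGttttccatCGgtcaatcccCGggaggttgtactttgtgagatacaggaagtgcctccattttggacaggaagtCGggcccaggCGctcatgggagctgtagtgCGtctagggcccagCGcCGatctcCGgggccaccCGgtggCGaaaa
Ajap1, chr4:153482781-153483080, minus strand: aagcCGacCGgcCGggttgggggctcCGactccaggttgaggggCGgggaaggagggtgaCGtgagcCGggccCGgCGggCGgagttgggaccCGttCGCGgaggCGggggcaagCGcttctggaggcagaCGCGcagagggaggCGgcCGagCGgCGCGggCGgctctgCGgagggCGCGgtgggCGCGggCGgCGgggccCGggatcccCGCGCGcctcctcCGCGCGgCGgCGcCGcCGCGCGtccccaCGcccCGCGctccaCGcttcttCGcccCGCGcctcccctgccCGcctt
Camk1g, chr1:193370233-193370532, minus strand: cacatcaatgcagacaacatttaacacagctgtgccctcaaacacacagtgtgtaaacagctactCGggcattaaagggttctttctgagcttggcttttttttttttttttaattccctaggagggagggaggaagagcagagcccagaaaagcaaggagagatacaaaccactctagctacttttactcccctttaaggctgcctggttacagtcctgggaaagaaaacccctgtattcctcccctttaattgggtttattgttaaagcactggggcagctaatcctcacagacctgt
The windows of E130311K13Rik and Gm21814 held 8 and 7 CG, those of Emc9 and Sv2a 11 and 17, and those of Vmn2r29 and Radil 23 and 29. Ajap1, which encodes an adherens junction associated membrane protein, held 51. Camk1g, which encodes a calcium/calmodulin-dependent kinase of neurons, held 1. Promoters of both extremes therefore lay under new peaks, and the peak at the CG-poor Camk1g (−log10 q 21.9, fold enrichment 12.4) was stronger than that at Ajap1 (−log10 q 6.74), which flanked a water peak.

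The new gene-end peaks were short and weak beside the rest of the list. Their median width was 458 bp (interval of the median 446 to 478, from the binomial distribution), with quartiles of 350.5 and 656.5 bp, against 2082 bp for the 10532 crotonate peaks at gene ends that were shared with water. Median −log10 q, the authors' significance against the local background, was 4.09, with a range of 1.38 to 41.0, against 76.4 for the shared gene-end peaks. Fold enrichment, the authors' ratio of summit signal to local background, had a median of 4.80 and reached 18.8. The pileup at a summit rose in whole steps, and if 1 step is 1 fragment, the summits held 14 to 108 fragments with a median of 24, against a median of 136 over the whole list. Even the strongest of them, at E130311K13Rik, stood only at percentile 39.6 of the list by −log10 q. New peaks away from gene ends were alike in size, with medians of 427 bp and, for −log10 q, 4.05 over 1553 peaks. The 719 new peaks on H3K27me3 were wider and stronger, with medians of 629 bp and 7.17. The whole crotonate list was stronger than the water list, with a median −log10 q of 57.5 against 37.7. No source used here gives the fragment totals, so the part that depth has in a peak's absence from the water list was not tested.

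By their distance from H3K4me3 already present in water, the peaks fell into a group beside an existing peak and a group standing apart. Within 2 kb of a water H3K4me3 peak lay 588 of the 1099 (53.5%, exact Clopper-Pearson 95% interval 50.5 to 56.5, for counting error only, as for all shares given). The other 511 had their nearest water peak at a median of 19509 bp and up to 3.06e+06 bp away. The 2 kb limit was set after the distances were seen and equals the gene-end window. Of the new peaks on H3K27me3 only 8.90% (6.92 to 11.2, 64 of 719) lay so close to a water peak, and of the new peaks away from gene ends 40.4% (37.9 to 42.9, 627 of 1553). Strength differed between the groups: 123 of the 511 peaks apart (24.1%, 20.4 to 28.0) and 26 of the 588 beside (4.42%, 2.91 to 6.41) had a −log10 q of at least 10. With the crotonate list shortened to its 13221 strongest peaks, the length of the water list, 259 of the 1099 were left, and 24.7% of those lay within 2 kb of a water peak.

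**Figure D1:**
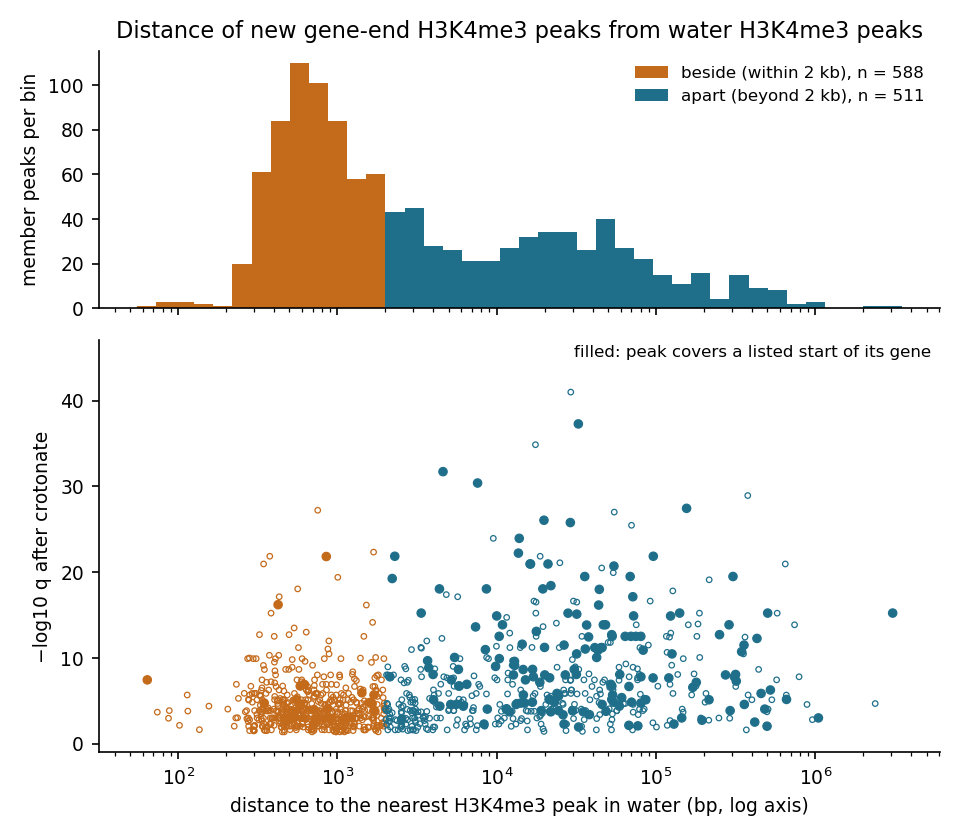
Top, number of new gene-end peaks by distance to the nearest H3K4me3 peak in water (bp, log axis), for the 588 within 2 kb (orange) and the 511 beyond (blue). Bottom, −log10 q of the same peaks after crotonate, 1 point per peak, filled where the peak covers a listed start of its gene; no orange peak exceeds a −log10 q of 27.2, and the blue ones reach 41.0.

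Many of the peaks apart covered a transcription start. By the RefSeq promoter table, 382 of the 511 reached a known gene start or only 3′ ends of known strand. A listed start of a gene they reached was covered by 158, which is 41.4% (36.4 to 46.5) of the 382. Among the peaks beside the numbers were 17 and 478 (3.56%, 2.09 to 5.63). The 382 and 478 leave out peaks that reach a 3′ end and also an end of unknown strand. Of all 511 peaks apart 30.9% (26.9 to 35.1) covered a listed start of any protein-coding gene, and of all 588 beside 3.06% (1.82 to 4.80). Over the 158 the summit lay at a median of 110.5 bp into the gene, with quartiles of 55.75 and 187.75 bp, and downstream of the start in 129 (81.6%, 74.7 to 87.3). Peaks shared with water had that side preference too: over 8730 that covered a start the median was 152 bp, with 79.5% downstream (78.7 to 80.4). The contrast can in part come from the rule. A new peak may not overlap a water peak and so cannot cover a start that one occupies. How many of the neighbouring water peaks occupy a start was not counted. The share covering a start was 2.30% of the 174 peaks within 500 bp and 30.9% of the 55 between 5000 and 10000 bp. It was 38.5% of the 179 between 10000 and 50000 bp and, with little change from there, 38.6% of the 83 beyond 100000 bp. Those shares count every peak, including the ones whose genes are not in the promoter table.

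**Figure D2:**
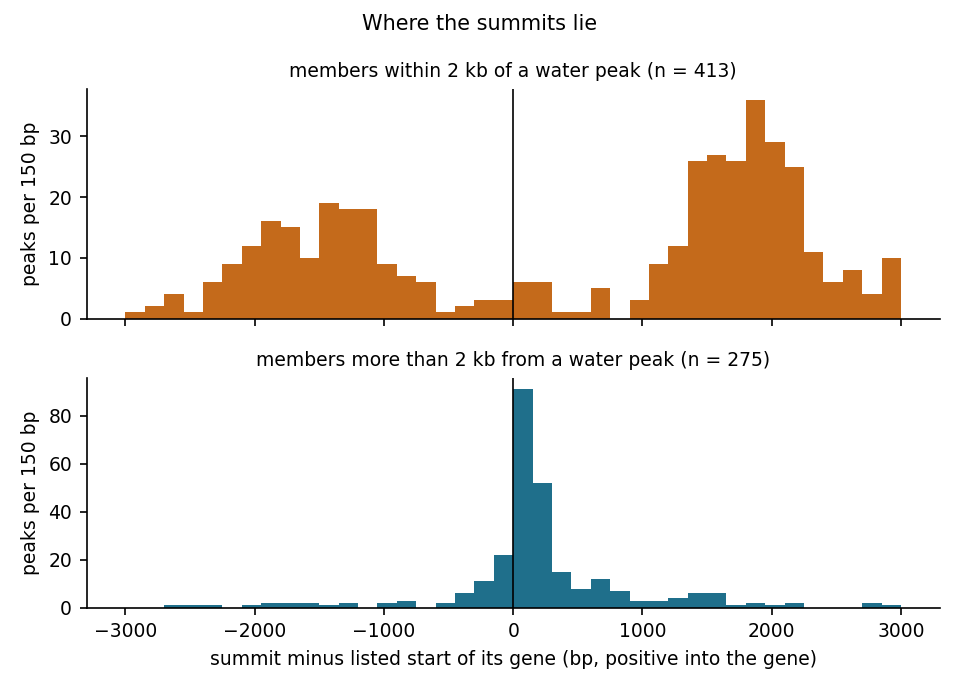
Number of peaks per 150 bp by the position of the summit relative to the nearest listed start of their gene (bp, positive into the gene), for summits within 3 kb of it, with 413 peaks beside a water peak (top) and 275 apart (bottom). The peaks apart pile up just inside the start, and the peaks beside form a hump on either side of it.

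Among the strongest peaks apart, several stood at annotated genes whose roles are known. Radil encodes a Rap-binding adaptor of cell adhesion and lies on chromosome 5 from 142483795 to 142551098. Its new peak, 142550457 to 142551234, was 0.778 kb long over the start, with a −log10 q of 37.3 and a fold enrichment of 17.2, and the nearest water H3K4me3 peak was 32.5 kb away. A crotonate H3K27me3 peak of 0.840 kb began 2.71 kb into the gene. At Sv2a, a synaptic vesicle protein gene on chromosome 3, the new peak spanned 1.09 kb over the start at 96181227, with a −log10 q of 30.4 and a fold enrichment of 15.2. Rimbp2, which encodes an active zone protein linked to calcium channels, had 2 new peaks, the stronger 0.924 kb long with a fold enrichment of 15.3 and its summit 817 bp into the gene. Camk1g had a peak of 1.23 kb over its start, 96.1 kb from any water peak. The strongest peaks at Sv2a, Rimbp2 and Camk1g were all wider than the median of 501 bp over the peaks apart. Other strong peaks apart were too, such as those at Emc9, Dera and Dgkk, but not the strongest of all, at E130311K13Rik.

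The other strong peaks apart lay at genes of varied roles. Emc9, a subunit gene of the endoplasmic reticulum membrane complex, had a peak of 0.897 kb (−log10 q 31.7, fold enrichment 17.0) with the nearest water peak 4599 bp away. Dera, the gene of deoxyribose-phosphate aldolase, had a peak of 1115 bp with a −log10 q of 34.9 across its left annotated end at 137754577 on chromosome 6. Dgkk, a diacylglycerol kinase gene on chromosome X, had 2 new peaks, and the stronger (−log10 q 28.9) lay 376.5 kb from the nearest water H3K4me3 peak. Glb1l2, a beta-galactosidase-like gene, had one of 0.699 kb with 25.5. Car14, which encodes a membrane carbonic anhydrase, had the widest peak of all, 2.41 kb with a −log10 q of 23.9. At E130311K13Rik, the strongest of all with a −log10 q of 41.0 and a fold enrichment of 18.8, the peak of 0.489 kb ended 63 bp short of the annotated gene end at the start, its summit 242 bp into the gene from the nearest listed start.

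**Figure D3:**
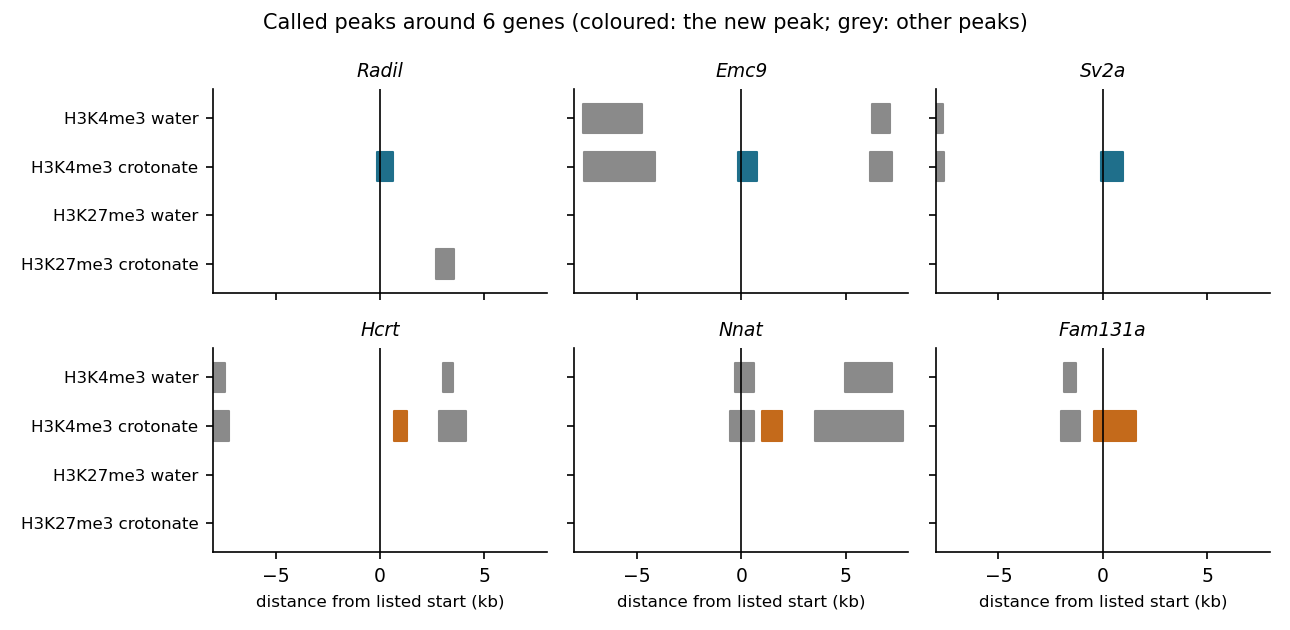
Called peaks of the 4 lists within 8 kb of a listed start (vertical line, distance in kb along the gene) at the 3 strongest peaks apart that cover a start (Radil, Emc9, Sv2a) and the 3 strongest beside a water peak with a start within 3 kb (Hcrt, Nnat, Fam131a). Coloured bars are the new peaks and grey bars all other peaks; in the top row no water H3K4me3 peak lies within 4 kb of the start, and in the bottom row one lies next to the new peak.

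The peaks beside a water peak flanked places already marked in water. Of the 588, 383 reached a known gene start, 95 reached only 3′ ends of known strand and 110 could not be placed. Whether the water neighbours lay on promoters was not examined. The 588 peaks had 566 different water neighbours, whose median −log10 q of 46.7 exceeded the 37.7 of the whole water list. That list also holds peaks away from gene ends, and the median over water peaks at gene ends alone was not computed. Of these neighbours 564 had exactly 1 crotonate counterpart, and in 534 of the 564 (94.7%) that counterpart was the wider one, the median going from 1706 to 2183 bp. Widening was as common away from the new peaks, in 94.9% of the 12537 water peaks with 1 counterpart and no new gene-end peak beside them, so it did not mark these neighbours. The nearest shared crotonate peak lay at a median of 465 bp from the new one. A listed start of the gene lay within 3 kb of the summit for 413 of the peaks. Of these summits 60.8% (55.9 to 65.5) were downstream of the start, at a median of 1822 bp, and the other 162 upstream, at a median of 1451.5 bp. The rule sets part of this shape. A new peak may not overlap its water neighbour, wherever that lies relative to the start, and must reach within 2 kb of a gene end.

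Nnat, the imprinted gene of neuronatin, shows the arrangement. After water its start lay in a peak of 0.905 kb, and after crotonate in one of 1.17 kb with a new peak of 0.965 kb (−log10 q 21.9) that began 0.984 kb into the gene. At Fam131a the new peak of 1.99 kb covered a listed start inside the annotated gene, 1537 bp from its annotated end at 20693094. A peak that measured 0.589 kb in water and 0.902 kb after crotonate lay upstream of that start. In water it ended 1.28 kb before that start and lay within the annotated gene, close to its 5′ end. The new peak also counted for the neighbouring gene Eif4g1, which encodes a scaffold of translation initiation. At Hcrt, which encodes the hypocretin neuropeptides, and the neighbouring potassium channel gene Kcnh4, the new peak (−log10 q 22.3) was stronger than the crotonate peak next to it (14.0), whose water counterpart was weak (2.71). The strongest peak of this group (−log10 q 27.2) lay within Tmem67 and across the left annotated end of Rbm12b2, where the gene spans overlap. Ripk2, a kinase gene of innate immune signalling, had new peaks of 0.399 and 0.735 kb on either side of 1 water peak of 0.832 kb. Junb, an AP-1 transcription factor gene, and Eef2, the gene of translation elongation factor 2, had new peaks upstream of their starts with fold enrichments of 8.84 and 7.44. Next in width to the peak of Car14 came, with that at Fam131a, those at Slc25a1, the mitochondrial citrate carrier gene (2.23 kb), at Hyal1, Hyal3 and Naa80 (2.08 kb), at Dusp1, an immediate early phosphatase gene (2.07 kb), and at Yipf3 (1.96 kb), and these lay beside a water peak.

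CG content, which the choice of peaks did not use, placed the covered promoters between those with and without H3K4me3. The observed count of CG dinucleotides over that expected from the C and G content had a median of 0.53 (quartiles 0.37 and 0.69) over the 192 listed starts of 178 genes under a new gene-end peak. It was 0.81 (0.67 and 0.94) over the 10578 starts marked in both lists, and 0.21 (0.11 and 0.36) over the 9676 starts marked in neither. Starts under new peaks on H3K27me3 were richer in CG, with a median of 0.70 (0.55 and 0.81) over 248. A ratio of at least 0.6 was held by 37.5% (30.6 to 44.8) of the starts under new gene-end peaks, by 70.2% (64.0 to 75.8) of those under new peaks on H3K27me3, by 83.0% (82.3 to 83.8) of those marked in both lists and by 8.62% (8.07 to 9.20) of those marked in neither. Over all 21263 listed starts the median ratio was 0.57, and 47.7% held a ratio of at least 0.6. The starts under new gene-end peaks, with 0.53 and 37.5%, thus lay below the listed starts as a whole. Starts of 1 gene can overlap, so they are not independent of each other, and starts were compared as a description with no test.

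**Figure D4:**
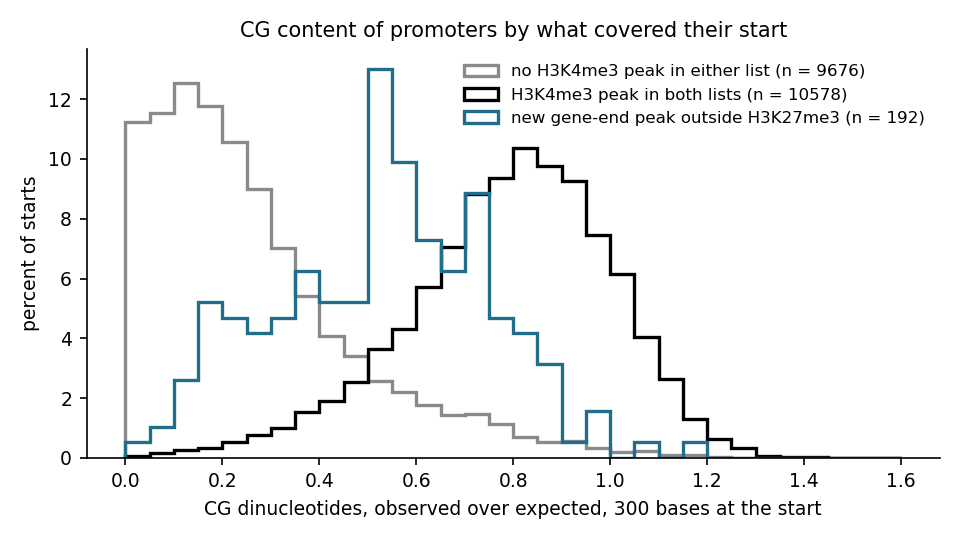
Percent of listed starts by the ratio of observed to expected CG dinucleotides in the 300 bases at the start (bins of 0.05), for 192 starts under a new gene-end peak (blue), 10578 with an H3K4me3 peak in both lists (black) and 9676 with none (grey). The blue outline lies between the others, with a median of 0.53.

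Motif searches of those 300 bases, on both strands, gave further descriptions of the same promoters. The GC box letters GGGCGG occurred in 65.1% (57.9 to 71.8) of the 192 starts under new gene-end peaks, against 46.2% of all 21263 listed starts, 70.6% of those marked in both lists and 17.7% of those marked in neither. TATAAA occurred in 5.21% (2.53 to 9.37), against 12.6% of all starts, 5.47% and 20.8%. CCAAT occurred in 44.3% (37.1 to 51.6), against 38.2% of all. The letters CCGGAAG of the ETS core occurred in 10.9% (6.90 to 16.2), near the 11.6% of all starts and below the 20.0% of those marked in both lists. The NRF1 motif was found in 4.17% (1.82 to 8.04) against 6.38% of all and 11.8% of those marked in both. CACGTG (7.81% against 7.84%), TGANTCA (5.21% against 6.99%), TGACGTCA (1.56% against 2.23%) and the interferon response core (2.60% against 3.35%) had intervals that held the share of all starts. GGGCGG contains a CG, so its share is not independent of CG content. The median count of CG was 13 both under new gene-end peaks and over all listed starts. Whether CG content accounts for the GC box shares was not tested.

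Most of the genes reached had an H3K4me3 peak in water near an end or in the gene, counted whichever gene it belonged to. Part of that share can come from the 588 new peaks that lay within 2 kb of a water peak. Sv2a counts as marked at an end, yet the nearest water peak lay 7.58 kb from its new peak over the start. Of the 1293 genes reached, 874 had an H3K4me3 peak at an annotated end in water, 64 had one only inside the gene, and 355 (27.5%) had none from 2 kb before to 2 kb beyond the gene. Among all protein-coding genes a new gene-end peak was found at 7.39% of the 11831 with H3K4me3 at an end in water, at 8.79% of the 728 with it only inside, and at 3.81% of the 9328 without it. Without the olfactory, vomeronasal and taste receptor genes that share was 4.52% of 7829 genes. Over the 1293 genes the median −log10 q of the stronger or only new peak was 4.42, the value beside which the medians of gene groups are given. A peak counts for each gene whose end it reaches, and 264 of the 1099 peaks reached 2 or more genes. On chromosome 18, 1 peak (37842309 to 37843326) counted for many of the 64 genes marked only inside, such as Pcdhga1 and Pcdhgb1. These clustered protocadherin genes share an annotated end, so the 8.79% rests in large part on that locus. The share without it was not computed. The gene groups that follow were chosen with earlier results of these data known.

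Genes of the ciliary axoneme, the motile core of cilia and sperm tails, had new peaks at 8 of 64 members (12.5%, 5.55 to 23.2, against 5.91% of all genes). Of the 33 that lacked H3K4me3 in water 7 had one (21.2%, 8.98 to 38.9), against 3.81% over all such genes. Rsph9, a radial spoke head gene, had a peak of 0.594 kb over its start with a −log10 q of 18.1 and a fold enrichment of 11.3. Spag6l, a central apparatus gene, had one of 0.533 kb with 11.2, and Rsph3a had one of 0.295 kb with 9.93 beside a water peak. Rsph1 and Tekt4, the latter a tektin gene, had peaks with −log10 q of 6.68 each. Zmynd10 and Dnah6 had weaker ones, with 5.70 and 4.73. The median over the 8 genes was 6.68.

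Interferon and antiviral genes had new peaks at 7 of 40 members (17.5%, 7.34 to 32.8, against 5.91% of all genes), and at 4 of the 24 without H3K4me3 in water (16.7%, 4.74 to 37.4, against 3.81%). Those 4 were Nlrc5, the transactivator of MHC class I genes, Ifitm2 and Bst2, which encode membrane proteins that restrict viruses, and Irf9, the DNA-binding subunit of the interferon-activated factor. The Nlrc5 peak measured 0.895 kb with a −log10 q of 20.5, and those of Ifitm2, Bst2 and Irf9 had 9.14, 7.45 and 4.09. At the 3′ end of Psmb8, an immunoproteasome subunit gene, and next to the antigen peptide transporter gene Tap2, a new peak reached a fold enrichment of 7.31. Irgm1 and Isg15 had weak peaks beside a water peak (3.87 and 2.34), and the median over the 7 genes was 7.45. None of the 45 lymphoid and myeloid signalling genes had a new gene-end peak, and for the 31 of them without H3K4me3 in water a count of 0 allows a share of up to 9.68% (3 counts of the total, the limit used for counts of 0). Of the cytokines and receptors 4 of 52 had one (7.69%, 2.14 to 18.5), namely Il17rc, Il11ra1, Ltb and Cd40, with −log10 q of 9.69, 8.08, 7.38 and 5.70. In the wider family of interleukin, chemokine and TNF genes 7 of 168 had one (4.17%), both shares near that of all genes, led by Tnfrsf23 with 19.5 and Il13ra1 with 10.9.

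Zfp genes, which encode zinc finger proteins of which many repress transposable elements, had new peaks at 29 of 397 members (7.30%, 4.95 to 10.3, against 5.91% of all genes). Among the 56 without H3K4me3 in water 10 had one (17.9%, 8.91 to 30.4, against 3.81% of all such genes). Zfp983 had a peak of 0.703 kb over its start with a −log10 q of 25.8, and Zfp52 one of 0.709 kb with 21.9. Zfp119b and Zfp114 followed with 19.4 and 16.5, and the median over the 29 genes was 6.39. Histone genes, which lie close together in clusters, had new peaks at 12 of 102 members (11.8%, 6.23 to 19.6), but several shared a peak. The strongest (−log10 q 21.9) was counted for H2ac23, H2bc23 and H4c17, and a peak of 1.33 kb over the start of H4c2 had 19.3. Ribosomal protein genes, active in every growing cell, had new peaks at 19 of 101 members (18.8%, 11.7 to 27.8, against 5.91% of all genes). Of the 101, 90 had H3K4me3 at an end in water, and the share over all genes so marked was 7.39%. Only 1 of the 19, Rps23rg1, lacked H3K4me3 in water. The strongest new peak lay within 2 kb of a water peak for all but 5 of the 19, and Rps2 (8.97) and Rps19bp1 (8.03) were just beyond, at 2072 and 2033 bp. Rpl23a (6.89) and Rps10 (6.66) followed, and the median over the 19 was 3.87. Rps19bp1 encodes a binding protein of a ribosomal protein and entered by its symbol. Tmem genes had new peaks at 25 of 238 members (10.5%, 6.91 to 15.1) and Ccdc genes at 15 of 137 (10.9%, 6.26 to 17.4), against 5.91% of all genes. These are families named for a sequence feature, with medians of 4.85 and 5.70.

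Families of neuronal excitability genes were reached at shares near the 5.91% of all genes. Potassium channel genes had new peaks at 8 of 94 members (8.51%, 3.75 to 16.1), and for 5 of these the strongest lay more than 2 kb from a water peak. After Kcnh4, described with Hcrt, Kcnt1 had one of 1.56 kb (−log10 q 10.7), and Kcnip2 and Kcna4 had peaks over their starts with 8.08 each. Neurotransmitter receptor genes had them at 4 of 97 (4.12%, 1.13 to 10.2), the strongest at the serotonin receptor gene Htr2a (1.34 kb, −log10 q 11.5), then at Gabre (5.87), Gria1 (4.05) and Adrb1 (3.73). Sodium and calcium channel genes had them at 3 of 40 (7.50%, 1.57 to 20.4), all beside a water peak and with −log10 q of at most 5.10. Adhesion and orphan receptor genes had them at 7 of 112 (6.25%, 2.55 to 12.5), the strongest at Gpr4, a proton-sensing receptor gene (22.2). In each of the first 3 families more members than these carried H3K27me3 at an end in water, 33, 41 and 11 in the order given, and peaks on H3K27me3 are not part of the set.

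Among metabolic genes the counts were small. In the list of fatty acid oxidation genes and PPAR targets 3 of 42 had a new peak: Ehhadh, a peroxisomal beta-oxidation gene (−log10 q 6.74), Plin5, a lipid droplet gene (3.73), and Acadvl (1.96). Solute carrier genes had them at 21 of 389 (5.40%, 3.37 to 8.13), near the background of 5.91%, with the sugar transporter genes Slc2a6 (21.0), Slc2a4 (14.7) and Slc2a10 (9.03) as the strongest. Cyp7b1, an oxysterol hydroxylase gene, had a peak of 1.00 kb with 15.2, 1 of 2 among 99 cytochrome P450 genes (2.02%, 0.246 to 7.11).

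Markers of the other cell types of the brain and of vessels and fibroblasts were reached in at most 2 genes per list. Among 12 oligodendrocyte markers only Mbp, the myelin basic protein gene, was reached, by a peak 0.929 kb wide and 215.6 kb from any water H3K4me3 peak, whose fold enrichment was 11.4. Among 20 microglia and macrophage markers Spi1 (4.81) and Cd68 (1.63) had one, among 12 fibroblast markers Col1a1 (4.09), among 9 astrocyte markers Aldoc (2.62) and among 14 neuron markers Nefm (5.14). Of 14 vessel markers and of 56 germline and meiosis genes 0 had one. Of those without H3K4me3 in water this allows up to 23.1% and 6.52%. Epithelial genes had 2 of 36 (5.56%, 0.680 to 18.7), at the tight junction genes Marveld3 (16.6) and Marveld2 (7.45). Striated muscle genes had 2 of 52 (3.85%), liver and plasma protein genes 3 of 60 (5.00%) and p53 targets 1 of 30 (3.33%), each with −log10 q of at most 5.55. For every list named so far in this paragraph the exact interval held the 5.91% of all genes. None of the 109 keratin genes and none of the 1110 olfactory receptor genes had a new gene-end peak. This allows a share of up to 0.270% of the latter, all without H3K4me3 in water, and of 2.80% of the 107 keratin genes without it. Over all genes without it the share was 3.81%.

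**Figure D5:**
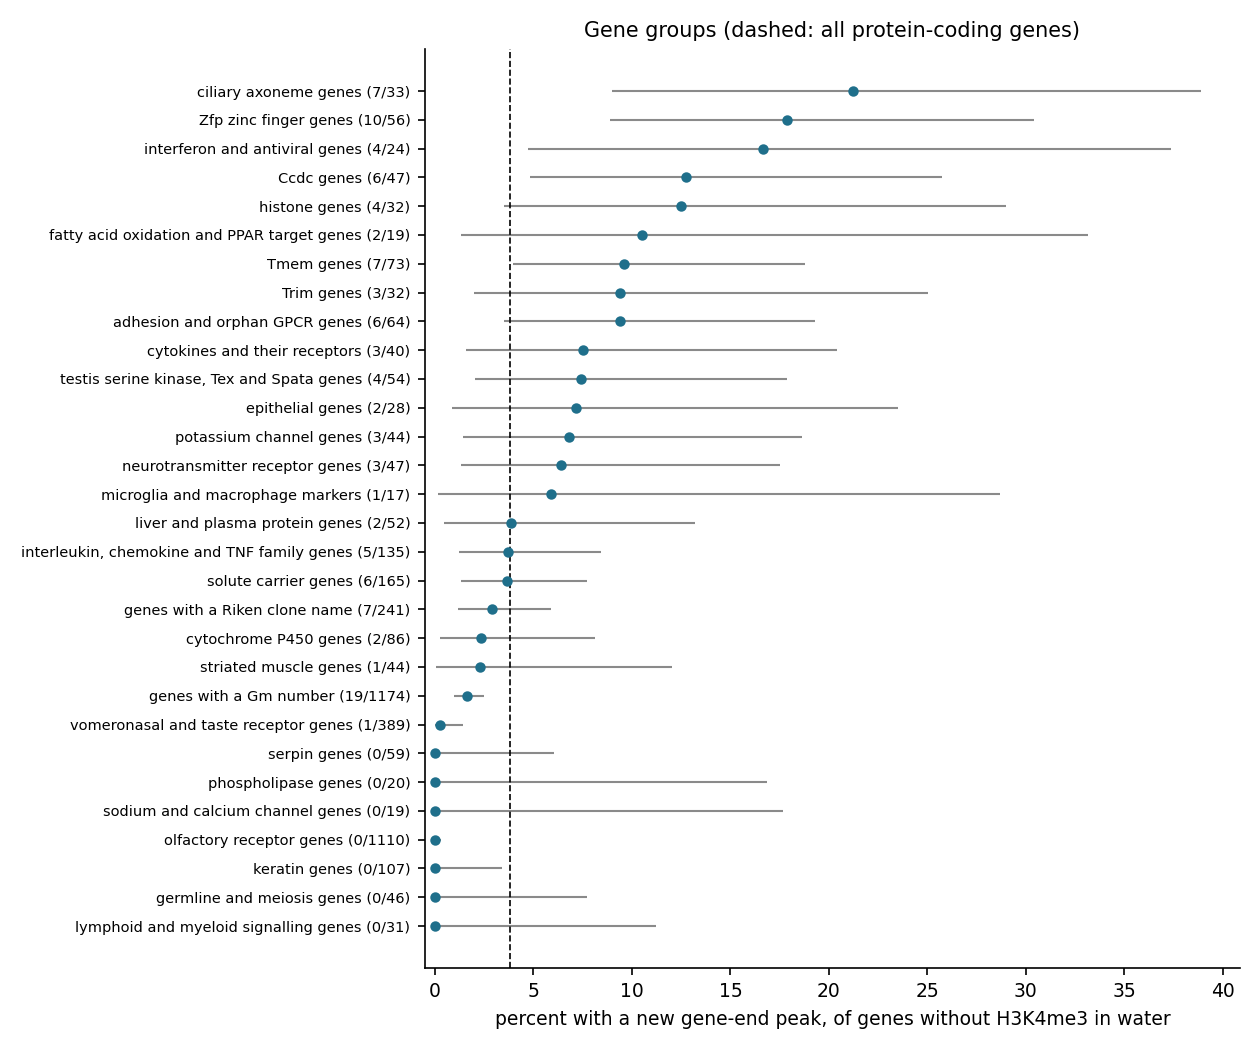
Percent of genes without H3K4me3 in water that had a new gene-end peak outside H3K27me3, for lists and symbol families with at least 15 such genes; points are shares, grey lines exact 95% intervals for counting error, numbers in brackets genes reached over genes without the mark, and the dashed line the 3.81% of all protein-coding genes. Ciliary axoneme, Zfp and interferon genes lie at the top and olfactory receptor and keratin genes at 0.

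Some of the strongest peaks lay in gene families with near-identical copies, where reads of 1 copy can be placed on another, and no source used here says how such reads were treated. These included Vmn2r29, a vomeronasal receptor gene (−log10 q 26.1), Gm21814 (27.4), Gm3636 (21.0), Gm10037 (21.0), Rbm12b2 with Rbm12b1, and the histone and Zfp genes. Values of such members are uncertain as to the copy.

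At the limits of the rule the few peaks nearest each side had −log10 q in overlapping ranges, and whether values change in a step there was not examined. The member closest to a water peak, 64 bp away, lay at Ebf1 with a −log10 q of 7.45, and the next were at Akr1b3 (74 bp, 3.69) and at Akr7a5 and Slc66a1 (87 bp, 2.98). The gene-end peaks that overlapped a water peak by the fewest bases, and so stayed out, were at Ankib1 and Krit1 (9 bp, 1.63), Calca (128 bp, 5.55) and Nhlrc3 and Proser1 (200 bp, 6.39). Peaks farthest from a gene end were at Adat1 and Kars (1999 bp, 5.70), Tollip (1997 bp, 3.87) and Epb41 (1996 bp, 1.63), and those just beyond the window were near Cfl1 and Snx32 (2002 bp, 4.29), Sh3d19 (2008 bp, 3.87) and Czib (2008 bp, 5.14).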

How the data were processed

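Per the submitters' processing notes, MACS2 2.2.7.1, Picard 2.22.0, Bowtie2 2.4.1 and SAMtools 1.10 were used, with GRCm38 as the build. Settings, duplicate handling and the background library were not given in the sources used here. Deposited peak lists hold 1 line per peak of 1 library, with width in bp, summit pileup (a signal), −log10 of p and q, and fold enrichment (a ratio to local background), per the file headers. The authors' values were used only to describe and rank peaks within a list. All pileups of a list were multiples of 1 step (100%). The 2 IgG samples were not analysed here.

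Overlaps were computed with scipy 1.17.1, pandas 2.3.3, and numpy 2.4.6 under Python 3.11.15, checked on simulated intervals against bedtools, and figures drawn with matplotlib 3.10.9. Gene spans and starts came from RefSeq tables of GRCm38.p6; starts and strand were listed for 17492 of 21887 protein-coding genes. With 1 library per group no test was run. The peaks, 17 lists and 21 symbol families were chosen with earlier results of these data known, and H3 and H4 genes joined the histone family after values were seen. Genes were named as the 12 strongest and 6 widest peaks, up to 4 per list or family, the edges of the rule, the sequence examples and the mapped loci; others were chosen after their values were seen.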

Additional observations from a re-analysis of the deposited data

How the results depend on the processing

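Peak calling in single libraries of unstated depth limits all values. With the crotonate list shortened to the length of the water list the set held 259 peaks at 328 genes, with a median width of 703 bp. Of those at a known start or only at 3′ ends of known strand 82.2% were at a start, and 50.0% of genes were marked in water. With −log10 q of at least 5 these were 451, 551, 617 bp, 81.7% and 58.6%, against 1099, 1293, 458 bp, 77.8% and 72.5% as reported. With no water peak within 1 kb they were 673, 792, 493 bp, 68.6% and 55.3%. A window of 1 kb gave 652, 749, 500.5 bp, 67.1% and 57.9%, and one of 5 kb 1783, 2288, 444 bp, 91.0% and 80.4%. Requiring 5 kb to H3K27me3 or 50% of the peak in the window left all 5 within their limits. The share beside a water peak, 53.5%, was recomputed after the data were seen. It was 24.7% in the shortened list, 36.6% at −log10 q of at least 5 and 37.1% and 58.4% with the 1 and 5 kb windows. By construction it fell to 24.1% without water peaks within 1 kb and reached 64.7% with beside read as 5 kb. Genes without H3K4me3 in water numbered from 164 (shortened list) to 449. No paired analysis was possible because each group has 1 library.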

Other observations

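Some new gene-end peaks lay close to each other. On chromosome 17, between 25786742 and 25878770, 9 of them lay within 92.0 kb, at genes that included Stub1, Rhot2, Jmjd8 and Wdr24. Stretches of 6 lay on chromosome 2 over 86.8 kb, around Nrarp and Tubb4b, and on chromosome 9 over 44.4 kb, around Hyal1, Rassf1 and Zmynd10. New gene-end peaks made up 86 of the 785 crotonate H3K4me3 peaks on chromosome 17 and 57 of the 557 (10.2%) on chromosome 19, against 27 of the 559 (4.83%) on chromosome 12 and 6.87% of the whole list. Whether they lie closer together than other peaks was not tested.

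Starts of long non-coding RNA genes accounted for few of the peaks. Only 8 of the 1099 (0.728%, 0.315 to 1.43) covered a listed start of a gene of another type and none of a protein-coding gene. The strongest of these lay at A530013C23Rik, by the transcription factor gene Cebpb (0.997 kb, −log10 q 9.82), and at Gm52872, by Il17rc and Il17re (0.827 kb, 9.69). No listed start lay under 915 of the peaks, and the promoter table does not hold every gene.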
